A study of Arabidopsis thaliana with 12 samples.

Results

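Late embryogenesis abundant (LEA) genes and dehydrin genes were followed in Arabidopsis thaliana seedlings of 2 lines grown on 2 media. The 9 genes described are AT3G15670, AT3G02480, AT3G17520, AT5G66780, LEA18 (AT2G35300), AtLEA4-1 (AT1G32560) and LEA4-5 (AT5G06760), called the seed LEA genes here, and the dehydrins COR47 (AT1G20440) and LTI30 (AT3G50970). Each gene was taken from the probe sets that the platform annotation assigns to it alone, which gave 9 probe sets, 1 per gene, of the 22746 that are not hybridisation controls and of 13286 genes named in this way. The seed LEA genes had been chosen by their intensity differences between the lines on these same arrays, and the dehydrins were set against them with those differences known. Those differences are therefore described without a test, while the effects of sucrose and the interaction of line and medium were tested. The interaction equals the line difference with sucrose minus that without it, so its test is not free of this choice. The sucrose effects use the same group means, so their tests are not fully free of it either.

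LEA proteins are small, very hydrophilic proteins that accumulate late in seed maturation, when the embryo dries, and again in vegetative tissue under water deficit, salt or cold. Many are disordered in solution, and they are thought to protect membranes and other proteins as water is lost. Dehydrins are a class of the family, marked by a lysine-rich segment, and several are induced in leaves by cold or drought. Much LEA transcription in seeds depends on abscisic acid, and transcripts of the seed programme normally decline as the seedling becomes established.

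Whole seedlings were collected at growth stage 0.70 from agar with MS salts at pH 5.7, under continual light at 20 °C after 4 days of stratification at 4 °C. Each line, Col-7 and acn1-2, was grown untreated and with 100 mM sucrose, which gave 4 groups with 3 arrays each. Col-7 is the wild-type background of all groups. The line acn1-2 (ACN1-2 in the labels) carries a T-DNA insertion in AT3G16910, the gene of ACN1, an enzyme that activates acetate to acetyl-CoA in peroxisomes and so feeds the glyoxylate cycle of the young seedling. Each line is 1 genotype, and no second insertion line or rescued line was analysed here. The design entry speaks of 3 pools of 1000 seedlings. The labels do not say that the arrays of a group came from separate cultures, so p-values measure the spread between these arrays alone. The platform was the Affymetrix ATH1 array, and no probe set (0) carried the name AT3G16910, so the expression of the disrupted gene was not analysed here.

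Values are intensities on the linear scale of the deposited table, in which each array has a 2% trimmed mean of 100.01 and a median between 41.0 and 47.2. They are comparable between arrays for 1 gene, but not between genes. Intensities at or under 14.4, the pooled 25th percentile, were set to that floor before log2 values were taken and have no order among themselves. The 13764 probe sets that averaged at least 29.1 across all 12 arrays, a level equal to the pooled 40th percentile, entered the limma fit of 4 group means. Differences were called at a Benjamini-Hochberg adjusted p under 0.05 over all of them. Of the 9 genes, 9 passed that filter, but AT3G17520, LEA18 and AtLEA4-1 reached 29.1 on average in the Col-7 groups alone. The SD of an array's deviations from its group mean was largest in acn1-2 untreated replicate 3 (0.245 on the log2 scale) and Col-7 sucrose replicate 3 (0.203), against 0.115 to 0.19 in the other 10 arrays. Tissue markers fitted whole seedlings as far as they were measured. The photosynthetic genes RCA and PRK and the root genes PYK10 and EXPA7, 2 of 6 markers on each list, were well above the floor in all 12 arrays. None of the 7 dry seed markers was measured under its own name.

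The seed LEA genes were lower in acn1-2 than in Col-7 on both media, while the intensities of COR47 and LTI30 overlapped between the 2 lines. In untreated acn1-2, 3 of the 7 seed LEA genes were at or under the floor in all 3 arrays. With sucrose the 7 genes stood at 14.5% to 34.0% of their Col-7 mean. This contrast chose the genes, so the values describe them and support nothing further. Because whole seedlings were measured, fewer cells with the transcript and less transcript per cell cannot be told apart.

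AT3G15670, a LEA gene of the largest Arabidopsis class of the family, had the largest log2 difference of the 7 on sucrose; without sucrose it is one of 3 genes whose difference is only bounded. Its 3 Col-7 untreated arrays read 138, 180 and 206, and the 3 acn1-2 untreated arrays read 14.4, 3.6 and 3.0. With sucrose the Col-7 arrays read 334, 312 and 479 and the acn1-2 arrays 57.7, 50.7 and 55.0. Every acn1-2 array lay below every Col-7 array, and all 3 untreated acn1-2 arrays were at or under the floor. The gene was therefore at least 12.0-fold lower in acn1-2 without sucrose. With sucrose the log2 difference was -2.76 ± 0.17 (SE, n = 3 against 3).

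AT3G02480, of the same class, stayed above the floor in all 12 arrays, so that its differences are measured on both sides. Untreated, it read 270.4, 278 and 319 in Col-7 and 41.3, 27.0 and 30.5 in acn1-2. On sucrose it read 622, 663 and 812 in Col-7 and 153, 201 and 175 in acn1-2. The lines did not overlap on either medium, and the acn1-2 mean was 11.4% of the Col-7 mean without sucrose and 25.2% with it. The log2 differences were -3.15 ± 0.16 and -1.99 ± 0.16 (SE, n = 3 against 3).

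AT3G17520, the third gene of that class, was dimmer. The untreated arrays read 50.0, 53.8 and 79.3 in Col-7 and 6.4, 6.6 and 0.8 in acn1-2, where all 3 were under the floor. The sucrose arrays read 119, 128 and 159 in Col-7 and 28.3, 31.2 and 23.1 in acn1-2. The lines were apart on both media, by at least 4.15-fold without sucrose and by a log2 difference of -2.30 ± 0.17 (SE) with it.

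AT5G66780, a LEA gene whose class is not assigned here, had the largest SE of the 7. Without sucrose it read 57.9, 79.2 and 102 in Col-7 and 3.5, 2.2 and 18.0 in acn1-2. With sucrose it read 105, 108 and 196 in Col-7 and 28.1, 36.7 and 30.0 in acn1-2. The acn1-2 arrays were lower throughout, with 2 of the untreated ones under the floor. On the floored log2 scale the differences were -2.32 ± 0.24 and -2.06 ± 0.24 (SE, n = 3 against 3).

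LEA18, AtLEA4-1 and LEA4-5 belong to a small group of LEA proteins that has been tied to tolerance of water deficit in Arabidopsis. LEA18 read 53.1, 43.9 and 61.6 in Col-7 untreated and 1.2, 0.6 and 1.4 in acn1-2 untreated. Its sucrose arrays read 79.2, 94.6 and 154 in Col-7 and 12.8, 23.9 and 21.3 in acn1-2. No acn1-2 array reached a Col-7 array, and the gene was at least 3.64-fold lower without sucrose. With sucrose, where 1 acn1-2 array was under the floor, it differed by -2.43 ± 0.23 (SE) on the floored log2 scale.

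AtLEA4-1 read 66.5, 50.3 and 79.3 in Col-7 untreated and 20.4, 19.5 and 20.8 in acn1-2 untreated. On sucrose the readings were 71.3, 66.9 and 87.4 in Col-7 and 14.7, 14.6 and 13.4 in acn1-2. The acn1-2 arrays were tightly grouped and below all Col-7 arrays on both media. The log2 differences were -1.67 ± 0.15 and -2.36 ± 0.15 (SE).

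LEA4-5, which is also induced in vegetative tissue by water deficit, had the smallest gap of the 7. It read 90.7, 89.0 and 123 in Col-7 untreated and 33.7, 33.7 and 42.4 in acn1-2 untreated. With sucrose it read 227, 212 and 316 in Col-7 and 83.7, 89.6 and 83.3 in acn1-2. The lines did not overlap on either medium, and acn1-2 held 36.3% of the Col-7 mean without sucrose and 34.0% with it. The log2 differences were -1.45 ± 0.17 and -1.53 ± 0.17 (SE).

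The dehydrin COR47, a classical cold- and drought-induced gene, was bright in every array. Untreated, it read 1102, 1078 and 985 in Col-7 and 976, 897 and 1067 in acn1-2. With sucrose it read 1023, 997 and 1079.5 in Col-7 and 1064, 1137 and 1127 in acn1-2. The lines overlapped on both media, and the log2 differences of -0.11 (95% interval -0.32 to 0.10) and 0.10 (95% interval -0.11 to 0.31) lay near 0.

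LTI30, a dehydrin also induced by low temperature, read 594, 547 and 473 in Col-7 untreated and 481, 485 and 444 in acn1-2 untreated. Its sucrose arrays read 662, 619 and 618 in Col-7 and 657, 665 and 652 in acn1-2. The lines overlapped again on both media. The log2 differences were -0.19 (95% interval -0.40 to 0.03) without sucrose and 0.06 (95% interval -0.16 to 0.27) with it.

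**Figure D1:**
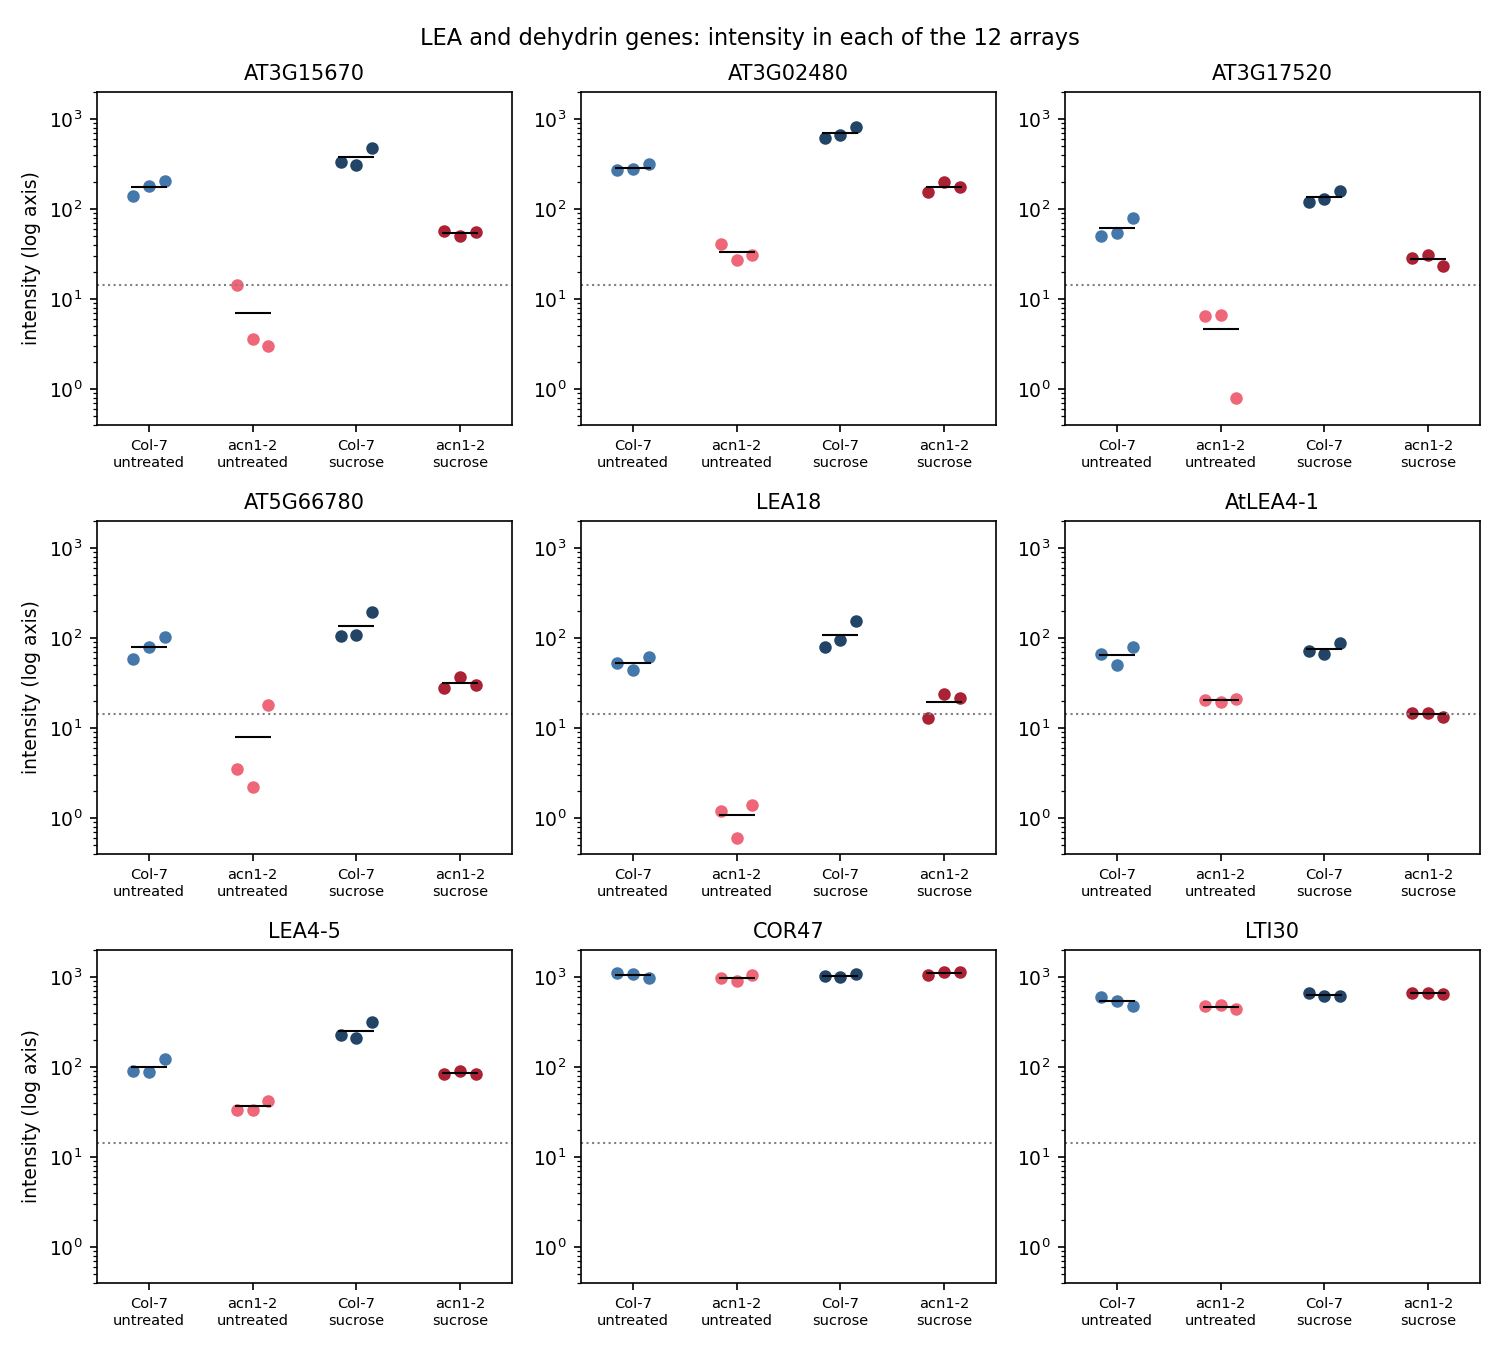
Intensity of the 9 genes in each of the 12 arrays, on a log axis without unit, 1 panel per gene. Points are arrays in replicate order, horizontal lines are group means and the dotted line is the floor of 14.4. The acn1-2 points lie below the Col-7 points of the same medium in the 7 seed LEA panels and overlap with them in the panels of COR47 and LTI30.

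Counted over the list, 7 of the 9 genes were lower in acn1-2 without overlap on both media, which is the choice of the list itself. Of all tested probe sets, 0.770% were lower in that way on both media, and limma called 0.421% lower without sucrose and 0.211% lower with it. The median log2 difference of the 7 seed LEA genes was -2.05 without sucrose and -2.30 with it, and the mean of the 2 dehydrins was -0.15 and 0.08. Over all tested probe sets the median difference was 0.03 and 0.00. The 7 seed LEA genes spanned -3.58 to -1.45 without sucrose and -2.76 to -1.53 with it.

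**Figure D2:**
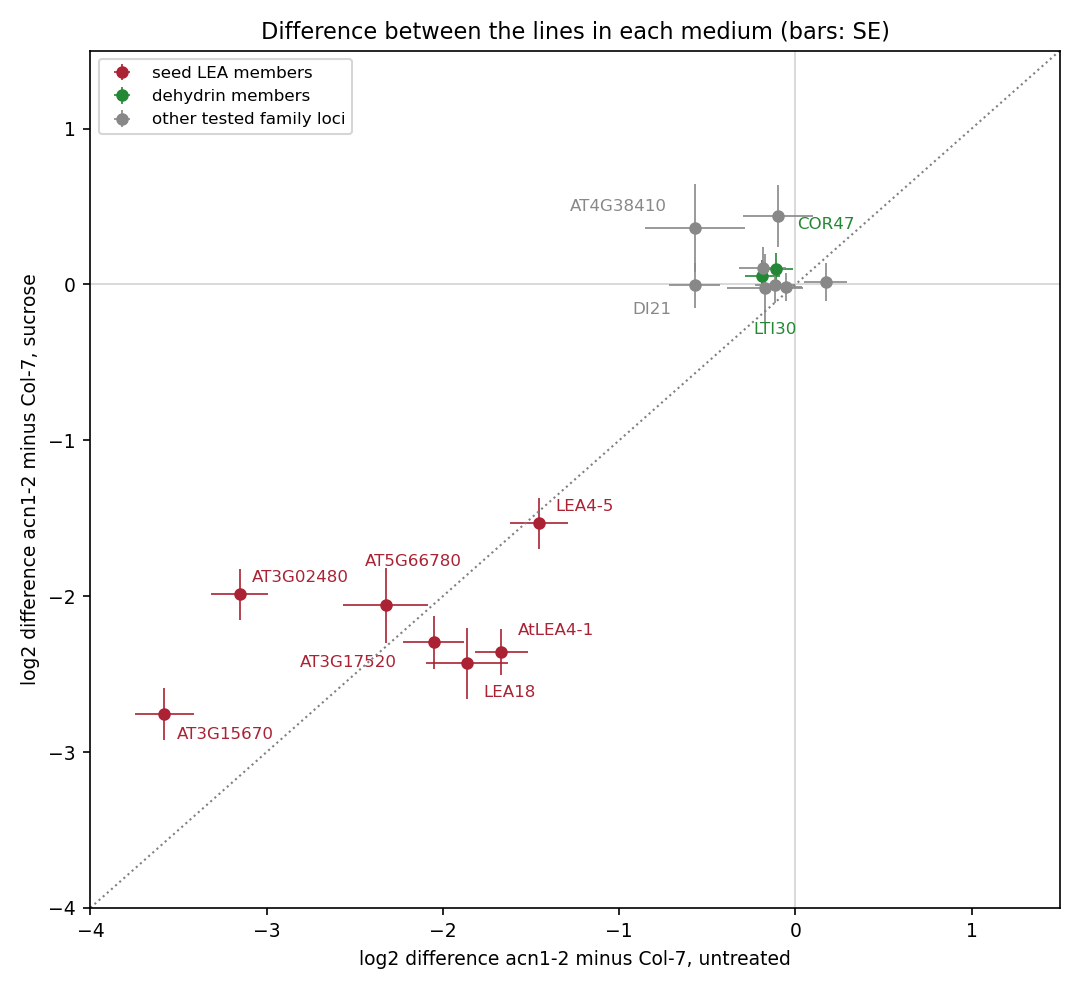
Log2 difference acn1-2 minus Col-7 without sucrose (horizontal axis) against the same difference with sucrose (vertical axis). Red points are the 7 seed LEA genes, green points the 2 dehydrins and grey points the 8 other tested genes of the family, with bars for 1 SE and a dotted line where both differences are equal. On the floored scale the red points run from -3.58 to -1.45 on the horizontal axis. Green and grey points lie between -0.57 and 0.17 on it.

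Sucrose raised most of the seed LEA genes in both lines. In Col-7, 6 of the 7 rose with sucrose (limma, adjusted p from 3.34e-05 to 0.0195), among 25.9% of all tested probe sets called higher in that comparison. LEA4-5 rose most, by 1.31 ± 0.17 on the log2 scale (SE; limma adjusted p = 3.34e-05), and AT3G02480 rose by 1.27 ± 0.16 (adjusted p = 3.91e-05). AT3G17520 rose by 1.17 ± 0.17 (adjusted p = 0.000111), AT3G15670 by 1.09 ± 0.17 (adjusted p = 0.00014) and LEA18 by 1.00 ± 0.23 (adjusted p = 0.00295), all by limma. In each of these 5 genes the 3 sucrose arrays were above the 3 untreated arrays, as in 31.3% of all tested probe sets.

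AT5G66780 rose by 0.75 ± 0.24 in Col-7 (SE; limma adjusted p = 0.0195), and its groups touched closely, with 102 as the highest untreated reading and 105 as the lowest sucrose reading. Leaving out either of 2 Col-7 arrays ended that call. The log2 difference was 0.54 without untreated replicate 1 (limma adjusted p = 0.0934) and 0.46 without sucrose replicate 3 (limma adjusted p = 0.0948). AtLEA4-1 was the exception of the 7, with a log2 difference of 0.22 ± 0.15 (SE; limma adjusted p = 0.243) and overlapping groups. The dehydrins did not pass the test in Col-7. COR47 differed by -0.03 ± 0.10 (SE; limma adjusted p = 0.823), and LTI30 by 0.24 ± 0.10 (adjusted p = 0.0611), although its 3 sucrose arrays lay above its 3 untreated arrays. LTI30 passed the threshold under 7 of 23 other settings (lowest adjusted p = 0.0317).

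Within acn1-2, 5 of the 7 seed LEA genes rose with sucrose and 1 fell, in a comparison where limma called 27.4% of all tested probe sets higher and 29.6% lower. AT3G02480 rose by 2.43 ± 0.16 (SE; limma adjusted p = 1.35e-07), from a mean intensity of 32.9 ± 7.45 to 176 ± 24.3 (SD, n = 3 each). LEA4-5 rose by 1.23 ± 0.17 (SE; limma adjusted p = 4.29e-05), against 1.31 in Col-7. Genes at the floor in untreated acn1-2 came up from a level that is only bounded. AT3G15670 was at least 3.78-fold higher with sucrose (limma adjusted p = 1.19e-06) and AT3G17520 at least 1.90-fold higher (adjusted p = 0.000547). AT5G66780 rose by 1.02 ± 0.24 on the floored scale (SE; limma adjusted p = 0.00305). With the floor raised to 29.1, AT3G17520 (0.03, limma adjusted p = 0.866) and AT5G66780 (0.13, adjusted p = 0.651) lost these calls.

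LEA18 did not pass the test in acn1-2 (limma adjusted p = 0.127). Its untreated arrays were all under the floor and 1 of its sucrose arrays was too, so the difference is only bounded at 1.35-fold or more. It passed under 3 of 22 other settings: with no floor (3.97 on the log2 scale), with a pseudocount in place of the floor (1.04, limma adjusted p = 0.000191) and without acn1-2 sucrose replicate 1 (0.65, adjusted p = 0.0345). AtLEA4-1 went the other way: all 3 sucrose arrays were below all 3 untreated arrays, by -0.47 ± 0.15 (SE; limma adjusted p = 0.0158). This fall took the gene from 20.2 ± 0.666 to 14.2 ± 0.723 (SD, n = 3 each), next to the floor, and the call was lost in limma with quantile normalization (adjusted p = 0.0791), with a pseudocount in place of the floor (adjusted p = 0.0779) and with the higher floor, where the difference was 0.00. LTI30 rose by 0.49 ± 0.10 (SE; limma adjusted p = 0.00116), with all 3 sucrose arrays above the untreated ones. COR47 differed by 0.18 ± 0.10 (SE; limma adjusted p = 0.125), with overlapping groups.

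**Figure D3:**
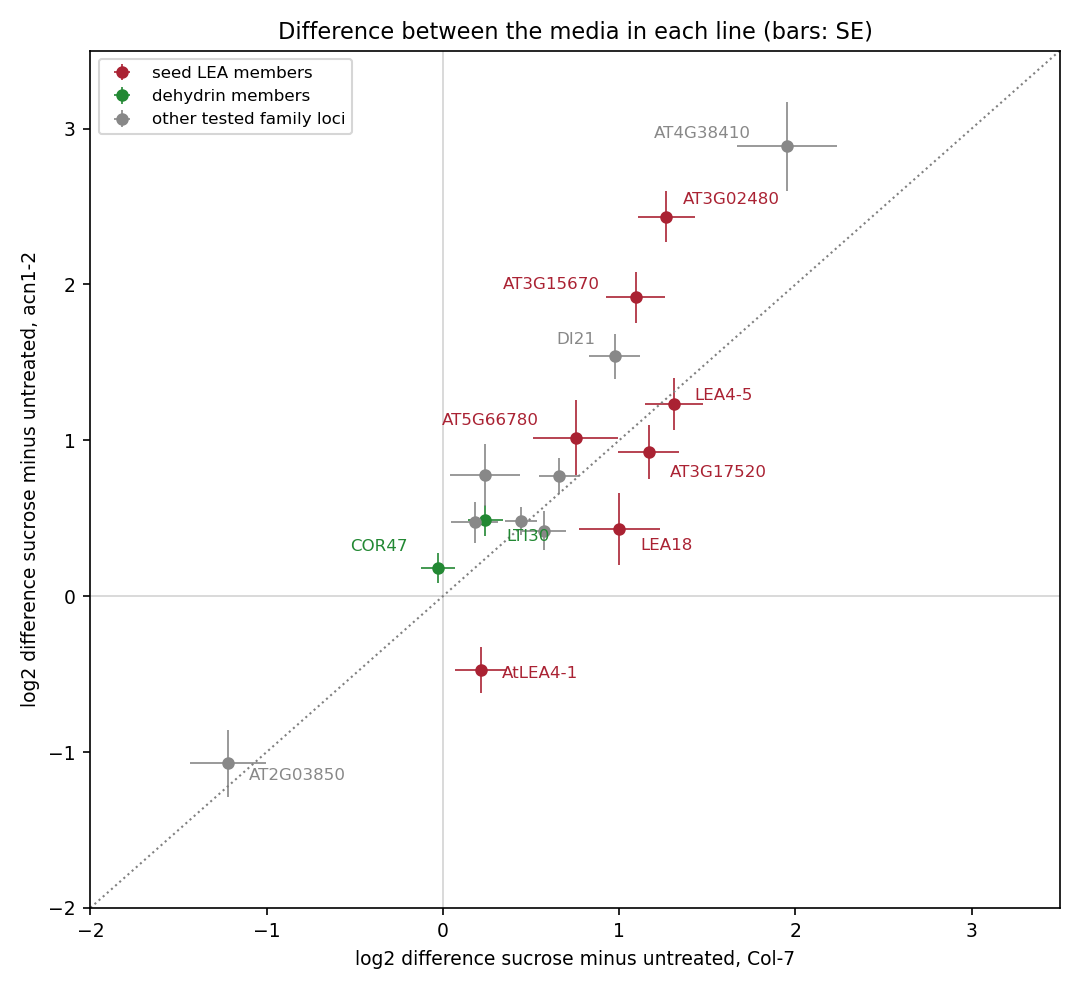
Log2 difference sucrose minus untreated in Col-7 (horizontal axis) against the same difference in acn1-2 (vertical axis), in the colours of the plot of line differences, with bars for 1 SE and a dotted line where both are equal. AT3G02480 and AT3G15670 lie above the dotted line, AtLEA4-1 lies below it at 0.22 and -0.47, and COR47 lies near 0 on both axes.

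Over the list, the median sucrose effect of the 7 seed LEA genes was 1.09 in Col-7 and 1.02 in acn1-2 on the log2 scale, and the mean of the 2 dehydrins was 0.11 and 0.33. The medians over all tested probe sets were 0.00 and -0.04. The seed LEA median in acn1-2 rests on the floor, since it was 2.60 with no floor and 0.13 with the higher floor. In Col-7 that median was 1.09 under both settings. How the lines compare in this median therefore depends on the floor. Other measures moved with sucrose as well. For the actin control, signal at the 3' end over that at the 5' end was 2.90 ± 0.563 in untreated Col-7 and 6.40 ± 0.492 on sucrose, against 2.31 ± 0.554 and 6.01 ± 0.605 for acn1-2 (SD, n = 3 each; two-sided exact permutation p = 0.1, the smallest that 3 against 3 arrays allow). The GAPDH control gave 1.15 and 0.852 in Col-7, untreated and on sucrose, and 1.24 and 0.877 in acn1-2 (exact permutation p = 0.1 each). The ubiquitin control gave 2.11 and 1.96 in Col-7 (exact permutation p = 0.3) and 2.33 and 1.91 in acn1-2 (exact permutation p = 0.2). The summed intensity of the 2 photosynthetic markers, RCA and PRK, ranged from 5547 to 6269 in Col-7 untreated and from 2374 to 3435 in Col-7 sucrose, and from 4498 to 7850 in acn1-2 untreated and 2900.0 to 3025 in acn1-2 sucrose. That of the root markers, PYK10 and EXPA7, ranged from 2769 to 3100.0 in Col-7 untreated and from 2504 to 2662 in Col-7 sucrose, and from 2109 to 3614 in acn1-2 untreated and 2632 to 3000.0 in acn1-2 sucrose. The part of RNA quality and tissue make-up in the sucrose effects on the LEA genes was not tested.

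Whether the line changed the response to sucrose was tested by the interaction, for which the Col-7 response was subtracted from the acn1-2 response. The same value is the line difference with sucrose minus that without it. Since those differences chose the seed LEA genes, their interaction values and p-values are not independent of the choice. None of the 9 genes passed (0 at an adjusted p under 0.05 by limma, 3 at an unadjusted p under 0.05), in a comparison where 0.0581% of all tested probe sets were called. At an unadjusted p under 0.05, limma had 641 of the 13764 tested probe sets higher and 739 lower. AT3G02480 had the largest value, 1.17 with a 95% interval from 0.67 to 1.67 (limma adjusted p = 0.142). AT3G15670 followed with 0.82 and an interval from 0.32 to 1.33 (adjusted p = 0.291), a value that rests on the floor of its untreated acn1-2 arrays. AtLEA4-1 had -0.69 with an interval from -1.15 to -0.24 (limma adjusted p = 0.313), also next to the floor. LEA4-5, measured above the floor in all arrays, had -0.08 with an interval from -0.58 to 0.43 (limma adjusted p = 0.932). The dehydrins had 0.21 (COR47, adjusted p = 0.616) and 0.25 (LTI30, adjusted p = 0.57). LEA18 had -0.57 (limma adjusted p = 0.565). With no floor its sign turned and it alone passed, at 2.97 (limma adjusted p = 0.00763), and that value compares untreated readings of 0.6 to 1.4 with sucrose readings of 12.8 to 23.9.

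The order of the 4 groups was the same in 6 of the 7 seed LEA genes. Col-7 with sucrose was highest, Col-7 untreated came next, then acn1-2 with sucrose and last acn1-2 untreated. That Col-7 stood above acn1-2 within each medium follows from the choice of the genes. The share of all tested probe sets with this order was not counted, so the counts only describe these genes. In 4 of these 6 genes no neighbours in the order overlapped. The exceptions were LEA4-5, where acn1-2 with sucrose (83.3 to 89.6) overlapped with Col-7 untreated (89.0 to 123), and LEA18, where both acn1-2 groups held arrays at the floor. AtLEA4-1 had acn1-2 with sucrose as its lowest group and overlapping Col-7 groups. With sucrose, acn1-2 remained below untreated Col-7 without overlap in 6 of the 7 genes, a count that the choice of the genes favours. Over all tested probe sets the share was 31.0%. Line and medium both differ in that comparison, and sucrose itself lowered many probe sets (29.6% called lower in acn1-2). The share is therefore no like background for genes that mostly rose with sucrose. For COR47 the order was acn1-2 sucrose, Col-7 untreated, Col-7 sucrose and acn1-2 untreated, and for LTI30 it was acn1-2 sucrose, Col-7 sucrose, Col-7 untreated and acn1-2 untreated.

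One replicate tended to be high across the seed LEA genes of a Col-7 group. Replicate 3 was the highest Col-7 sucrose array in 7 of the 7 genes, at 1.26 to 1.84 times the mean of the other 2 arrays, and replicate 3 was also the highest Col-7 untreated array in 7 of the 7. Among all tested probe sets these arrays were highest of their group in 38.4% and 33.2%. The 7 genes are thus not independent readings of a group. In neither dehydrin was replicate 3 the highest of the Col-7 untreated arrays, while of the Col-7 sucrose arrays it was the highest for COR47 and the lowest for LTI30.

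The wider family was set beside these genes from a list of 52 loci, of which 36 were measured under their own name. Apart from the 9 genes, 27 loci remained, 8 of which passed the filter. None of the 8 passed the test between the lines (0 called by limma in either medium, 1 at an unadjusted p under 0.05 in each), and their median log2 difference was -0.14 without sucrose and 0.01 with it. Of the 13764 tested probe sets, limma had 1078 higher and 906 lower at an unadjusted p under 0.05 without sucrose. With sucrose these counts were 306 and 352. These 8 are what was left after genes with a known difference had been listed, so the count is no independent contrast. The lowest of them without sucrose were DI21, a drought-induced gene, at -0.57 ± 0.14 (SE; limma adjusted p = 0.124) and the dehydrin gene AT4G38410 at -0.57 ± 0.28 (adjusted p = 0.374).

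Sucrose raised 5 of these 8 loci in Col-7 and 7 in acn1-2, and lowered 1 in both lines. Over all tested probe sets limma called 25.9% higher and 24.3% lower in Col-7, and 27.4% higher and 29.6% lower in acn1-2. AT4G38410 rose by 1.95 ± 0.28 in Col-7 (SE; limma adjusted p = 0.000104) and by 2.89 ± 0.28 in acn1-2 (adjusted p = 3.41e-06), above the fitted value of each of the 9 genes in the same comparison. It read 33.9, 29.4 and 27.2 in Col-7 untreated and 87.1, 91.9 and 196 with sucrose, against 4.9, 19.6 and 29.3 in acn1-2 untreated and 147, 151 and 151 with sucrose. Unlike in the seed LEA genes, the acn1-2 sucrose arrays lay inside the range of the Col-7 sucrose arrays. DI21 rose by 0.97 ± 0.14 and 1.54 ± 0.14 (SE; limma adjusted p = 0.000121 and 2.38e-06). COR15B, a cold-regulated gene whose protein protects chloroplast membranes during freezing, rose by 0.58 ± 0.12 and 0.42 ± 0.12 (SE; limma adjusted p = 0.00186 and 0.0113). AT2G03850 fell by 1.22 in Col-7 and by 1.07 in acn1-2 on the log2 scale (limma adjusted p = 0.000461 and 0.000989).

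Below the filter, 19 further loci of the family were too dim to enter the test, and 8 of them were at or under the floor in all 12 arrays. In 5 of the 11 others every acn1-2 array was lower than every Col-7 array on both media, as in 0.415% of the probe sets that were below the filter with an array above the floor. These 5 were LEA (AT2G21490, a dehydrin), AT4G36600, AT4G21020, AT1G72100 and AT2G23110. The dehydrin LEA read 32.0, 38.3 and 39.5 in Col-7 untreated and 12.8, 13.3 and 14.4 in acn1-2 untreated, and 47.6, 36.8 and 64.3 in Col-7 sucrose and 9.3, 12.1 and 12.2 in acn1-2 sucrose. All 6 acn1-2 arrays were at or under the floor, which bounds the difference at 2.53-fold or more without sucrose and 3.35-fold or more with it. Fitted with no filter, limma called this gene lower on both media (adjusted p = 0.0295 and 0.0082), among 0.149% and 0.110% of all probe sets called lower. A dehydrin was thus among the genes called lower in acn1-2, at a level close to the limit of measurement.

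AT4G36600 was at least 2.03-fold lower without sucrose and at least 3.08-fold lower with it, and AT4G21020 at least 1.16-fold and at least 2.86-fold. With no filter both passed on sucrose (limma adjusted p = 0.0237 and 0.00436) and not without it (0.114 and 0.649). M17, a seed LEA gene of another class, was lower without overlap on the untreated medium alone, by at least 1.97-fold, since 1 Col-7 sucrose array was under the floor. COR15A, the partner gene of COR15B, was at the floor in all untreated arrays and rose above it in 2 Col-7 and 1 acn1-2 sucrose arrays.

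**Figure D4:**
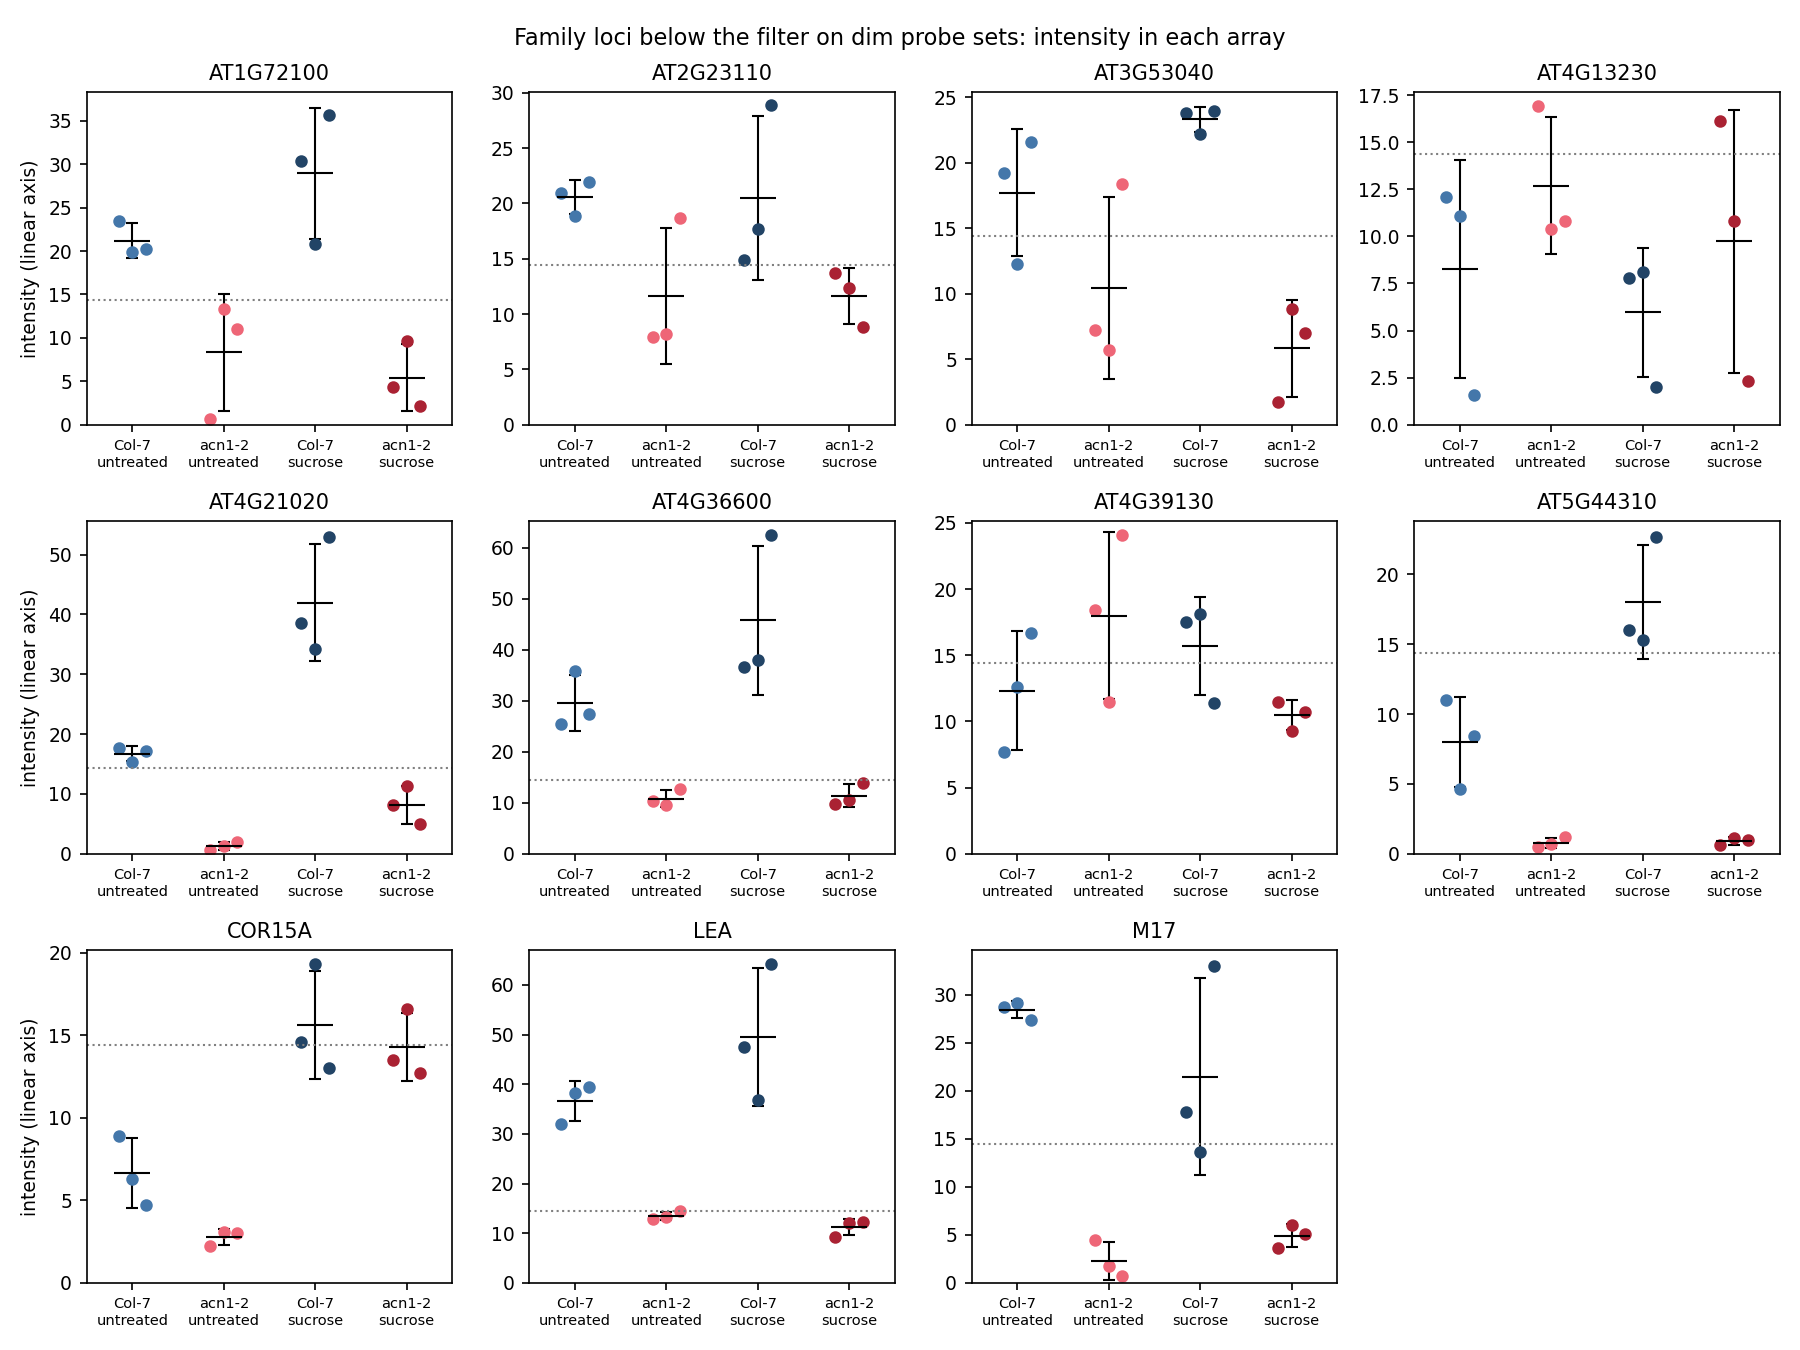
Intensity of the 11 loci of the family that were below the filter but above the floor in at least 1 array, on linear axes without unit that differ between panels. Points are arrays, horizontal lines are group means, bars are SD (n = 3) and the dotted line is the floor of 14.4. In the panels of LEA, AT4G36600 and AT4G21020 the acn1-2 points stay on or under the dotted line while the Col-7 points lie above it.

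Genes with the most similar pattern were sought by Pearson correlation over the 12 arrays with the mean of the 7 seed LEA genes, among 7398 tested probe sets that name 1 other gene. The correlations describe these arrays, which share groups and scaling, and carry no p. AT1G04560 was closest (r = 0.985), with mean intensities of 103 ± 22.5 in Col-7 untreated, 30.0 ± 4.01 in acn1-2 untreated, 196 ± 62.0 in Col-7 sucrose and 41.2 ± 0.404 in acn1-2 sucrose (SD, n = 3 each). AT3G54940 (r = 0.976), ATOEP16-2 (r = 0.949), AT2G25890 (r = 0.932) and AT5G07330 (r = 0.931) followed. ATOEP16-2 encodes the seed form of a plastid outer envelope protein, and its means were 35.6 ± 9.14, 2.83 ± 1.21, 71.7 ± 25.6 and 8.53 ± 2.29 in the same order of groups (SD, n = 3 each). For COR47 the nearest genes were AT5G17610 (r = 0.873), AT5G64010 (r = 0.852) and AT3G49740 (r = 0.834). LTI30 had AT3G49725 (r = 0.971), AT5G47890 (r = 0.965) and AT3G17020 (r = 0.957) beside it, all with group means that were higher on sucrose in both lines.

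By position, 3 of the 7 seed LEA genes lie on chromosome 3, the chromosome of the insertion in AT3G16910. By gene order in the TAIR10.1 annotation, 64 protein-coding genes separate AT3G17520 from the disrupted gene, 133 separate AT3G15670 from it and 1572 separate AT3G02480 from it. LTI30 is on the same chromosome with 2395 genes between. AT5G66780 and LEA4-5 are on chromosome 5, LEA18 on chromosome 2, and AtLEA4-1 and COR47 on chromosome 1.

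Few of the regulators of these genes could be named, since the annotation used here gives no gene name to 8730 probe sets and several to 503. Of 38 listed regulators of the abscisic acid and cold responses, EEL, a seed transcription factor, was the single one measured under its own name. It stayed below the filter at 17.1, 25.2 and 20.4 in Col-7 untreated, 18.1, 12.9 and 2.6 in acn1-2 untreated, 26.9, 18.0 and 22.1 in Col-7 sucrose and 21.3, 18.7 and 23.8 in acn1-2 sucrose. None of the 12 listed cold and drought targets was measured under its own name. Of 15 listed seed storage and oil body genes, 2 were measured in that way. OLEO3, an oleosin that coats oil bodies, rose with sucrose by 1.43 ± 0.23 in Col-7 and 1.26 ± 0.23 in acn1-2 (SE; limma adjusted p = 0.000239 and 0.000508) and did not pass between the lines (adjusted p = 0.643 untreated). PAP85, a storage protein of the vicilin type, passed in none of the 5 comparisons, with differences between the lines of -0.49 ± 0.17 without sucrose and -0.57 ± 0.17 with it (SE; limma adjusted p = 0.23 and 0.544).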

How the data were processed

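RNA of whole seedlings was hybridised to 12 one-colour ATH1 arrays. Linear intensity values of 22810 probe sets were deposited, which the authors had scaled to a common trimmed mean, as the values show. The summary software was not given in the sources used here. Group and replicate of each array came from the labels. Genes came from the platform annotation, and their locus names from matching gene identifiers. The 64 control probe sets were left out, values under 14.4 were raised to that floor, log2 was taken, and probe sets with a mean of at least 29.1 were kept. All 4 groups were fitted together with limma 3.58.1 in R 4.3.3 (8 residual and 4.87 prior degrees of freedom, no trend); tests were two-sided. The floor held 0.359% of tested values. The median SE was 0.133 (log2) for a difference and 0.189 for the interaction; the small number of arrays limits precision. The fit was tested on simulated data to which no floor was applied, so that test does not cover values at the floor. A fold bound compares a group with another whose arrays were all at the floor, each at its mean floored log2 value. It is a lower limit only where the first group lies wholly above the floor.

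The genes, lists and tests were chosen with earlier results of these data known. All 9 genes are named, with every measured locus of the family by value or count; from the other lists, called genes and stated regulators; and by correlation the 5 or 3 nearest genes. Alternatives covered normalization, filter, floor, variance model, array weights, replicate block, groups in the fit and leaving out arrays. Sequences and motifs were not analysed here. Figures were drawn with matplotlib 3.10.9.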

Additional observations from a re-analysis of the deposited data

How the results depend on the processing

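Of the 9 genes in the 5 comparisons, no value that had been called changed sign under any of the alternatives. Raising the filter to 62.3, the 60th percentile of all values, left 6 of the 9 genes in the test, with 4 past the threshold between the lines on each medium, a contrast that chose the genes and so only describes them. With it the median of the seed LEA genes still tested was -2.74 and -2.02 for the line without and with sucrose, 1.57 for sucrose in acn1-2 and 0.54 for the interaction. With no floor the seed LEA median was -3.91 for the line without sucrose, 2.60 for sucrose in acn1-2 and 1.80 for the interaction, 3 of the 9 genes were called for sucrose in Col-7 and 1 for the interaction. Between the lines with sucrose 5 of the 9 genes were then called, since AT3G17520 and AT5G66780 lost their calls. A higher floor at 29.1 gave -1.42 and -1.99 for the line without and with sucrose and 0.13 for sucrose in acn1-2, where 4 of the 9 genes were called. LEA18 was then not called between the lines without sucrose. These calls between the lines, too, only describe the genes. A pseudocount of 16 gave -1.79 for the line with sucrose and 0.21 for the interaction. Without both arrays that stand apart, the interaction median was also 0.21, and 1 other locus, AT4G38410, was called for the line without sucrose and for the interaction. With no filter, 1 other family locus was called between the lines without sucrose and 3 with it.

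Leaving out each array in turn moved the mean of the 2 dehydrins between -0.2175 and -0.0949 for the line without sucrose, between 0.0366 and 0.1592 for sucrose in Col-7 and between 0.1747 and 0.2972 for the interaction; the far value in each case came without Col-7 untreated replicate 3. AT5G66780 lost its sucrose call in Col-7 under 5 of 23 alternatives. AT3G15670 (adjusted p = 0.055) and AT3G17520 (adjusted p = 0.0905) lost theirs in limma with no floor. COR47 passed for sucrose in acn1-2 under 3 of 23 alternatives (lowest adjusted p = 0.0388).

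Over all probe sets, limma called 75 for the line without sucrose, 42 with no filter, 25 from the groups compared alone, between 28 and 46 without any 1 of the Col-7 untreated arrays, and between 36 and 46 without Col-7 sucrose replicate 1 or 2 or any 1 of the acn1-2 sucrose arrays. With sucrose 29 were called, 164 under array weights, 63 without both arrays that stand apart, 17 with no floor and 10 under the stricter filter. For the interaction 8 were called, 13 with the stricter filter, 18 with trend and robust estimates, 22 with array weights, 13 without both arrays that stand apart and between 4 and 19 when 1 array was left out. Over all tested probe sets same-numbered arrays did not deviate together (r from -0.0953 to 0.139), so the numbers were not used as pairs. For the seed LEA genes alone, replicate 3 was the highest array of both Col-7 groups in 7 of the 7. In acn1-2 with sucrose another replicate was the highest for each of these genes. The genes of a group move together, so the Col-7 pattern does not show that the numbers are pairs. With the replicate block 41 probe sets were called for the line without sucrose, and 6 of the 9 genes were called for sucrose in Col-7, 7 in acn1-2 and 0 for the interaction, with no call among these 9 changed. The fit of the groups compared alone has no form for the interaction, and the planned motif window was not run because no promoter sequence was used here.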
